A study of Bos taurus with 16 samples.

Results

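The set comprises genes whose read counts separated monocyte-derived macrophages (MDMs) of Taurine and Indicine cattle, whether or not the cells had been given lipopolysaccharide (LPS). The genes were chosen by their measured levels in the 16 libraries, and a gene belonged to the set when its level in all 8 Taurine libraries lay above, or in all 8 lay below, its level in the 8 Indicine libraries. The level was log2(CPM + 0.5), where CPM is the count divided by the library's total on genes and multiplied by 1000000. The means of the breeds also had to differ by at least 1 on this scale, and the mean change with LPS over the 8 animals had to stay below 1. Of 27607 genes listed, 12968 reached 1 CPM in at least 4 of the 16 libraries, and 302 of these met the rule. In 52 of them the Taurine libraries were higher, and in 250 the Indicine libraries were higher. Since the difference between the breeds chose these genes, its size and direction are given as a description, and fits of the breed contrasts on these libraries are no independent test of it.

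Macrophages sense LPS, which gram-negative bacteria carry on their surface, through the receptor TLR4 and its partners, and respond by transcribing cytokines, chemokines and enzymes of host defence. MDMs are grown from blood monocytes in culture and are used to compare this response between animals. Taurine and indicine cattle descend from separately domesticated lineages, which differ in their adaptation to heat, parasites and infection. A gene can differ between such lineages in its transcript level before any stimulus, and a stimulus can leave that difference as it was, widen it or narrow it.

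The libraries labelled Taurine came from 4 animals and those labelled Indicine from 4 others, which the study equates with the breeds Holstein and Gir. The study describes the animals as healthy and 6 to 12 months old, and their sex is not given in the sources used here. Adherent mononuclear cells of each animal were cultured for 11 days with fetal bovine serum, then left Unstimulated in medium or given 100 ng/ml LPS for 48 hours. Each animal gave 1 library of either kind, so the replicate is the animal and breeds were compared over 4 animals against 4. All libraries shared the same culture protocol, and the labels name no batch, so animals of a breed cannot be told apart from any handling that they shared.

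The libraries held between 7362247 and 10296054 counts on genes, so that 1 CPM stood for between 7.36 and 10.3 counts. No pair of libraries held identical counts. Fragments that met no gene made up 13.2% ± 0.770 (SD, n = 8 libraries) of the sum of gene counts and unassigned fragments in Taurine and 11.9% ± 1.36 (SD, n = 8 libraries) in Indicine. Fragments aligned to several places made up 7.04% ± 0.699 (SD, n = 8 libraries) in Taurine and 6.91% ± 0.412 (SD, n = 8 libraries) in Indicine. The study aligned both breeds to 1 taurine reference genome, and what these shares add to the breed differences was not tested. The files list genes by Ensembl identifier only, and the reference table, of assembly ARS-UCD2.0 with 37063 genes, matched 0 of the identifiers. No gene could therefore be named or given a function, the gene lists of the design could not be applied, and the labelled cell type was not checked against its markers. In bulk libraries such as these, fewer cells of a type and less RNA per cell cannot be told apart.

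Most genes that separated the breeds were higher in Indicine MDMs. Among all 12968 genes, the libraries of the breeds did not overlap in 398, or 3.07%. These were 303 genes higher in Indicine, 2.34% of all, and 95 higher in Taurine, 0.733% of all. With the difference of at least 1, 304 genes were left, 2.34% of all, and the limit on the change with LPS then removed only 2. One of these 2 was 4.51 higher in Taurine and changed by 1.41 with LPS, and the other was 3.16 higher in Taurine and changed by 1.02. Of the 302 genes, 82.8% were higher in Indicine. The share was lower without the demand that no library overlap, since 559 of the 985 genes with a breed difference of at least 1 and a change with LPS below 1 were higher in Indicine, or 56.8%. Over all 12968 genes, 40.6% were higher in Indicine, and the median difference of Taurine minus Indicine was 0.08.

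The 302 genes differed by a median of 1.85 between the breeds, with a range from 1.01 to 6.54, against a median absolute difference of 0.25 over all genes. The difference lay between 1 and 2 in 177 genes, between 2 and 3 in 93 and at 3 or more in 32. The gene just inside the threshold differed by 1.01, and the gene just outside it, which also did not overlap, by 0.98. The nearest libraries of the breeds lay a median of 0.32 apart, and in 34 genes they lay at least 1 apart. In 50 genes this gap was under 0.1, and in the closest it was 0.0026. Thus a gene could enter the set with a wide or a very narrow margin.

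**Figure D1:**
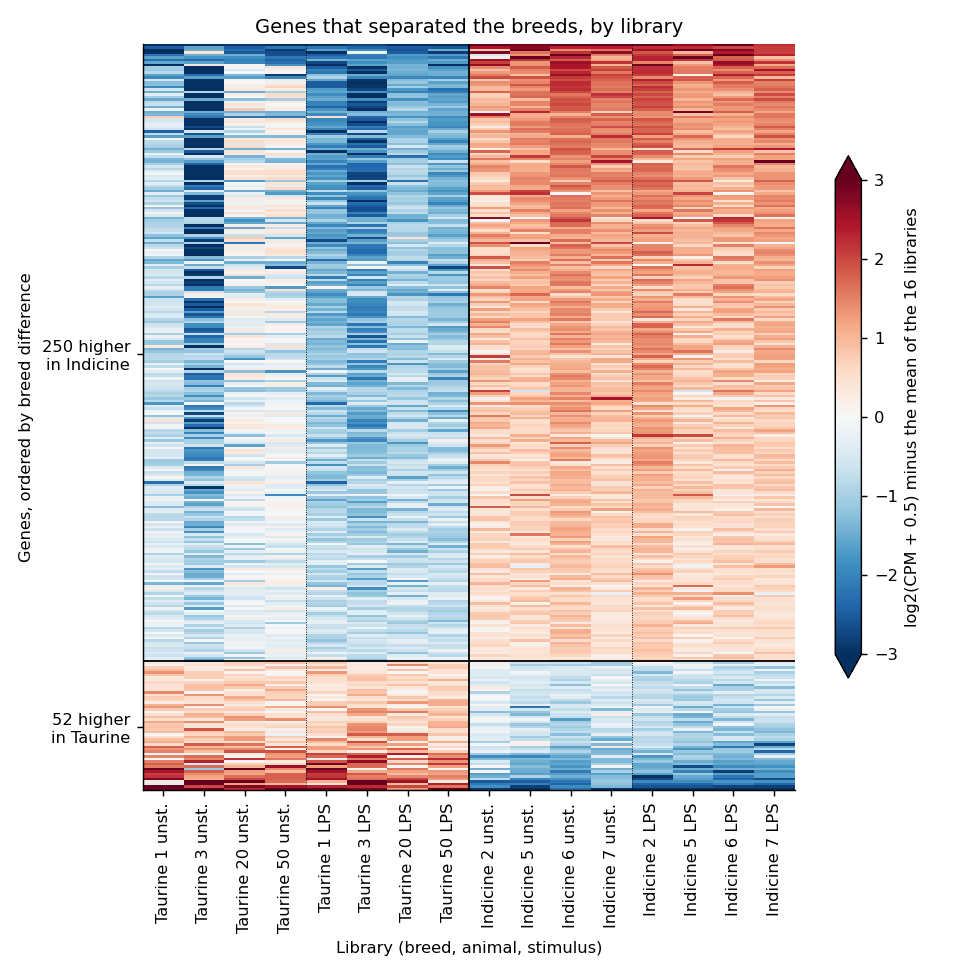
Each row is 1 of the 302 genes and each column 1 of the 16 libraries, and the colour gives log2(CPM + 0.5) minus the mean of the 16 libraries, drawn within 3 on either side. Genes are ordered by the breed difference, with the 250 higher in Indicine on top. The unstimulated library of Taurine animal 3 is the darkest blue column, with a mean of -1.85 over these 250 genes, and the unstimulated libraries of Taurine animals 20 and 50 are the palest.

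These genes lay at low, middle and high levels, with fewer at the top. When the 12968 genes were divided into 4 equal classes by mean level, 86 of the 302 fell in the lowest class, 109 in the next, 71 in the third and 36 in the highest. Among the genes higher in Taurine, 25 of 52 fell in the lowest class, and among those higher in Indicine 61 of 250. The mean level was a median of 2.54 in the genes higher in Taurine, 3.62 in those higher in Indicine and 4.20 over all genes. In the higher breed, the mean CPM had a median of 22.2 and reached 1248 in 1 gene. In the lower breed the median was 5.75 and the highest 594, and 106 of the 302 genes still had a mean of at least 10 CPM there. CPM are not scaled for transcript length, so these levels compare libraries within a gene and order genes only roughly.

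In 42 genes no library of the lower breed reached 1 CPM, and 30 of them were higher in Indicine and 12 in Taurine. In 63 genes, these 42 included, fewer than 4 libraries of the lower breed reached it, 21 of them higher in Taurine and 42 higher in Indicine. These 63 could not have passed the minimum of 1 CPM in 4 libraries without the higher breed, so the minimum itself favoured a difference in them and their values are a description. In the 42 genes the mean CPM in the higher breed lay between 0.995 and 79.8, with a median of 3.25, and reached 0.635 in the lower. They differed by 1.16 to 6.54 between the breeds, with a median of 2.42. In 22 of the 42, all 8 libraries of the higher breed reached 1 CPM. At the other end, 170 genes reached 1 CPM in all 8 libraries of the lower breed, and these differed by a median of 1.49, with a median CPM of 41.0 in the higher breed and 11.9 in the lower. The remaining 90 genes reached it in 1 to 7 libraries of the lower breed and differed by a median of 2.29. In the lower breed, 6 genes could not be told from a count of 0, since its 8 libraries held at most 3 counts together, against 107 to 376 counts in the higher breed. In 2 of these the lower breed held no count.

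**Figure D2:**
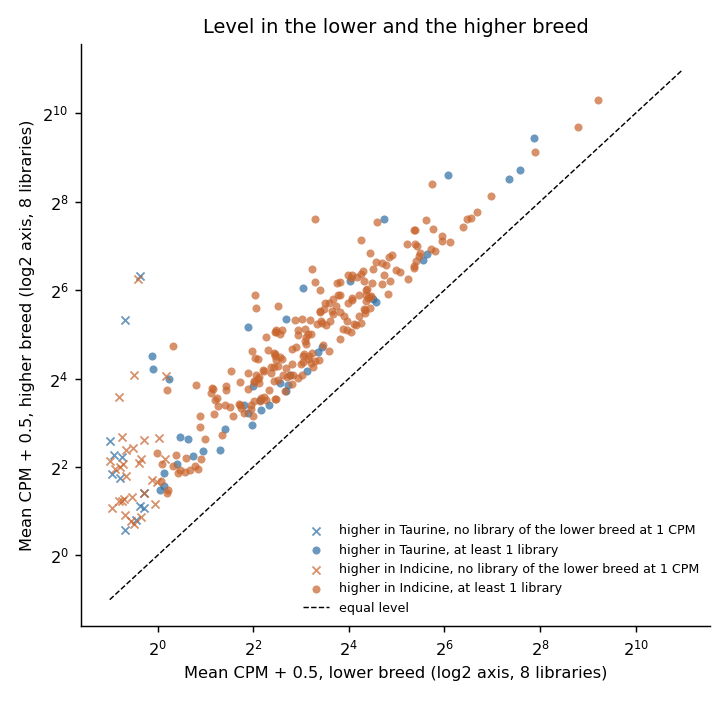
Each point is 1 of the 302 genes, with its mean CPM + 0.5 over the 8 libraries of the lower breed on the horizontal axis and of the higher breed on the vertical axis, both on log2 scales, and the dashed line marks equal levels. Crosses are the 42 genes in which no library of the lower breed reached 1 CPM. The other 260 also lie above the line, up to a mean of 1248 CPM.

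Among genes higher in Indicine, ENSBTAG00000009725 had the largest difference. Its CPM in unstimulated Indicine MDMs were 133, 49.8, 130 and 55.1 in animals 2, 5, 6 and 7. After LPS they were 103, 43.5, 58.7 and 31.6 in the same order. Every Indicine animal had thus a lower value after LPS, and animals 2 and 6 were the highest before it. The smallest change was -0.19 on the log2 scale in animal 5, next to a median of -0.12 over all genes in that animal. In all 4 animals the change lay below the median of all genes in the same animal. In the 8 Taurine libraries the CPM lay between 0 and 0.517 with a median of 0.268, from 17 counts in all, against 5131 in the Indicine libraries. The ratio of these counts, scaled by library totals, was 308 (95% exact binomial interval 192 to 529, which covers counting error only). The lowest Indicine and the highest Taurine library lay 4.98 apart on the log2 scale, the widest gap of the set.

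ENSBTAG00000038064 came next among the genes higher in Indicine. Its CPM were 18.1, 21.9, 16.6 and 16.8 in unstimulated Indicine animals 2, 5, 6 and 7. They were 15.2, 15.3, 13.2 and 13.9 after LPS. The smallest change was -0.25 on the log2 scale in animal 2, next to a median of -0.20 over all genes in that animal. In all 4 animals the change lay below the median of all genes in the same animal. The Indicine animals lay close to each other, with a mean of 18.4 ± 2.47 CPM (SD, n = 4) before and 14.4 ± 1.06 CPM (SD, n = 4) after LPS. The Taurine libraries lay between 0.0971 and 0.615 CPM with a median of 0.123. This came from 14 counts against 1100 in Indicine, a ratio of 80.1 (95% interval 47.5 to 147).

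Among genes higher in Taurine, ENSBTAG00000048470 had the largest difference. Unstimulated Taurine animals 1, 3, 20 and 50 had 225, 71.4, 31.2 and 77.6 CPM. After LPS they had 110, 44.7, 15.7 and 62.8 CPM. Animal 1 was the highest and animal 20 the lowest under both conditions, and all 4 values were lower after LPS. In animal 50 the change was -0.30 on the log2 scale, close to the median of -0.31 over all genes in that animal, and in the other 3 animals it lay below the median of all genes in the same animal. The Indicine libraries lay between 0 and 0.951 CPM with a median of 0.234. They held 18 counts against 5459 in Taurine, a ratio of 297 (95% interval 188 to 502).

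ENSBTAG00000001801 followed among the genes higher in Taurine. Its CPM were 37.2, 16.7, 29.4 and 24.1 in unstimulated Taurine animals 1, 3, 20 and 50. After LPS they were 21.4, 20.0, 17.0 and 12.7. The value was lower after LPS in 3 of the 4 animals and higher in animal 3. In the same 3 animals the change lay below the median of all genes in that animal. In the Indicine libraries the CPM lay between 0.124 and 1.21 with a median of 0.223, and 1 of the 8 libraries passed 1 CPM. The counts were 29 against 1519 in Taurine, a ratio of 51.4 (95% interval 35.6 to 77.0).

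**Figure D3:**
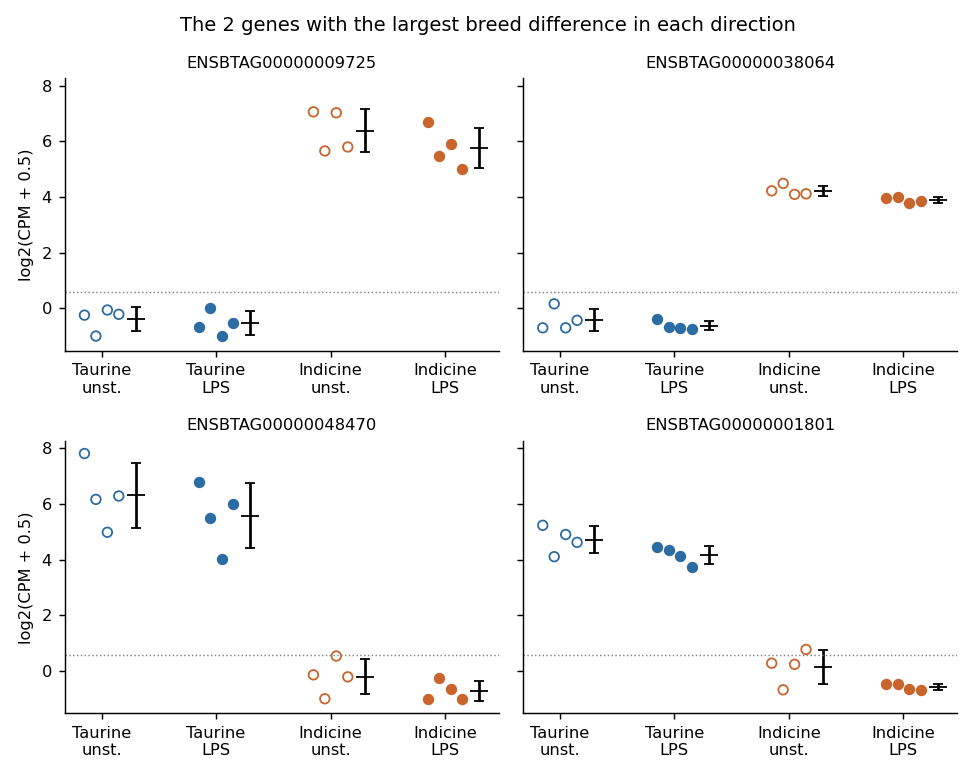
Log2(CPM + 0.5) is shown for the 2 genes with the largest breed difference in each direction, with open circles for unstimulated and filled circles for LPS treated libraries, and bars for the mean and SD of 4 animals. The dotted line marks 1 CPM. All 8 libraries of the higher breed lie above 3.7 in each panel, and those of the lower breed lie below 0.8.

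The breed difference was larger in LPS treated than in unstimulated MDMs for most of the 302 genes. Its median size was 1.62 in unstimulated and 2.04 in LPS treated libraries. It was larger after LPS in 244 of the 302 genes, or 80.8%, against 56.6% of all genes. This held for 212 of the 250 genes higher in Indicine and for 32 of the 52 higher in Taurine. With each animal left out in turn, and the 302 genes kept as chosen from all animals, the count lay between 234 and 249. Over all genes the share then lay between 52.0% and 61.2%. The rule had chosen the 302 genes from these same libraries, so the counts describe them and are no test. Without Taurine animal 3, the median difference in unstimulated libraries fell to 1.26, and that after LPS was 1.96.

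Each breed contrast was also fitted with edgeR on its own 8 libraries, and a gene was called when its Benjamini-Hochberg adjusted p lay under 0.05 and its log2 fold change was at least 1. In unstimulated libraries 40 of 12565 genes were called, 0.318%, and 35 of the 285 genes of the set that were tested were among them. Of these, 7 were higher in Taurine, where 0.0796% of all genes were called, and 28 were higher in Indicine, where 0.239% were. In LPS treated libraries 881 of 11986 genes were called, 7.35%, and 270 of the 285 tested genes of the set were among them. They were 42 genes higher in Taurine, against 3.26% of all genes, and 228 higher in Indicine, against 4.09%. The rule had used these same libraries, so the calls describe the set and support nothing about it. All 35 genes called in unstimulated libraries were also called in LPS treated ones, while 235 were called after LPS only and 32 in neither contrast. These counts are over all 302 genes, of which 285 were tested in each contrast. A gene without a call may therefore not have been tested. The set held 35 of all 40 calls in unstimulated libraries, or 87.5%, and 270 of the 881 after LPS, or 30.6%. The number called in unstimulated libraries depended on the animals and the tool. With 1 animal left out it lay between 12 and 34 genes of the set. It was 12 without Indicine animal 7, where 0.0938% of all genes were called, and 17 without Indicine animal 6, where 0.132% were. It was 17 without Taurine animal 1 (0.149% of all genes), 19 without Taurine animal 20 (0.212%) and 34 without Taurine animal 3 (0.381%). It was 20 without Taurine animal 50 (0.189%) and 20 without Indicine animal 5 (0.202%). The Wald test of DESeq2 called 172 of the set, against 2.27% of the 14663 genes to which it gave an adjusted p.

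**Figure D4:**
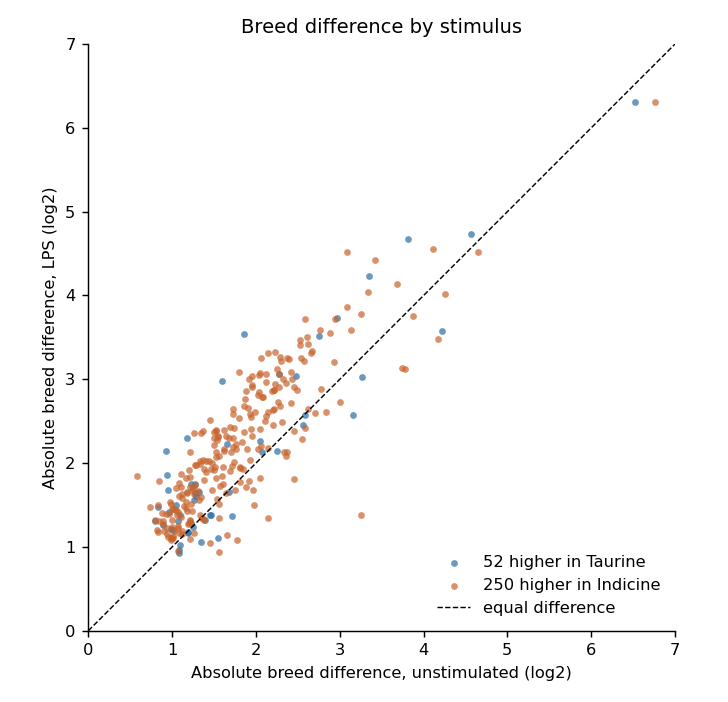
Each point is 1 of the 302 genes, with the absolute difference of the breed means of log2(CPM + 0.5) in unstimulated libraries on the horizontal axis and in LPS treated libraries on the vertical axis. The dashed line marks equal differences. Of the 302 points, 244 lie above it, with 212 of the 250 genes higher in Indicine and 32 of the 52 higher in Taurine.

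The spread between animals differed in the same 2 conditions. The SD over the 4 unstimulated Taurine libraries had a median of 0.70 in the genes higher in Indicine, against 0.44 in LPS treated Taurine libraries, and 0.35 and 0.32 in the Indicine groups. Over all genes these medians were 0.40, 0.39, 0.31 and 0.29 in the same order. Without Taurine animal 3 the first value was 0.36, close to those of the other groups. In the genes higher in Taurine, the SD of unstimulated Taurine libraries had a median of 0.43, and without animal 3 it was 0.45.

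Taurine animal 3 had the lowest level of the genes that were higher in Indicine. The mean over these 250 genes, relative to the mean of the 16 libraries, was -1.85 in its unstimulated and -1.51 in its LPS treated library. In Taurine animals 1, 20 and 50 it was -0.72, -0.36 and -0.31 before LPS. After LPS it was -1.24, -0.98 and -1.11. The unstimulated libraries of animals 20 and 50 thus lay nearest to the Indicine libraries, which lay between 0.83 and 1.26. For the 52 genes higher in Taurine the Taurine libraries lay closer together, between 0.86 and 1.21, and the Indicine libraries between -1.20 and -0.61.

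Of the 250 genes higher in Indicine, the highest Taurine library was the unstimulated one of animal 50 in 102 genes, or 40.8%, and of animal 20 in 77, or 30.8%. The lowest Indicine library was the unstimulated one of animal 2 in 88 of them, or 35.2%, and the LPS treated one of animal 5 in 54, or 21.6%. Of the 52 genes higher in Taurine, this library of Indicine animal 2 was the highest Indicine library in 22, or 42.3%. Their lowest Taurine library was spread more evenly, with at most 12 genes, or 23.1%, for the unstimulated one of animal 50 and 10 for the LPS treated one of animal 20. The unstimulated library of Indicine animal 2 also held the largest share of fragments that met no gene among the Indicine libraries, 14.6%, against 10.4% to 13.0% in the other 7. What this share adds to the place of that library was not tested. Leaving out an animal and applying the rule again gave between 310 genes, without Indicine animal 6, and 416, without Taurine animal 50. Between 283 and 298 of the 302 genes were found again each time. Genes higher in Taurine then numbered between 51 and 110, against 52 with all animals. The values that exceeded 1.5 times 52 were 110 without Indicine animal 2, 104 without Taurine animal 20 and 86 without Taurine animal 3.

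Breed took the largest part of the variation of the 302 genes, which is what the rule asked for. Of the sum of squares of the 16 levels, breed held a median of 74.3%, animals within a breed 15.4%, the stimulus 1.22%, the joint term of breed and stimulus 1.17% and the remainder 5.22%. Over all genes these medians were 10.5%, 49.8%, 8.74%, 1.49% and 13.2%. The part between animals was 16.1% in the genes higher in Indicine and 11.3% in those higher in Taurine.

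Once the means of the 4 groups had been removed, the genes higher in Indicine still varied together across libraries. The median correlation between pairs of these 250 genes was 0.28, against 0.03 between pairs of all genes. It was 0.38 over the Taurine and 0.30 over the Indicine libraries, and 0.23 over all libraries without Taurine animal 3. Between pairs of the 52 genes higher in Taurine it was 0.05, and between genes of opposite direction -0.05. These values are over 16 libraries in which every animal appears with both stimuli, so the points are not independent and the values are a description. For the pair ENSBTAG00000009725 and ENSBTAG00000038064 the correlation was -0.38, and for ENSBTAG00000048470 and ENSBTAG00000001801 it was 0.35.

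The set was limited to a mean change with LPS below 1, and most of its genes lay far inside that limit. The median change was -0.20, against -0.18 over all genes. Scaling by the trimmed mean of log ratios (TMM) in place of library totals moved the median over all genes to -0.03 and that of the set to -0.06, so changes are given next to those of all genes. The change with LPS had the same sign in all 8 animals in few of the 302 genes, with 1 gene higher and 14 genes lower after LPS. Over all genes these shares were 2.49% and 13.3%. The mean change lay above 0 in 63 of the 302 genes, or 20.9%, against 23.2% of all genes. It had opposite signs in the breeds in 154 of the 302, or 51.0%, against 25.9% of all genes. These counts of signs moved with the scaling. With TMM, 300 of the genes passed the minimum level, of which 6 were higher and 3 lower in all 8 animals, against 5.61% and 4.70% of all genes. The mean change then lay above 0 in 122, or 40.7%, against 45.4% of all genes, and had opposite signs in 188, or 62.7%, against 33.0%.

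In the genes higher in Indicine, the animals of the breeds took different courses. Relative to the median of all genes in the same animal, the median change of these 250 genes was -0.39, -0.37 and -0.47 in Taurine animals 1, 20 and 50. In Taurine animal 3, whose unstimulated library had been the lowest, it was 0.35. In Indicine animals 2, 5, 6 and 7 it was 0.66, 0.03, -0.21 and 0.19. Hence 3 of 4 Taurine animals lay below the median of all genes and 3 of 4 Indicine animals above it, and the animals of the breeds overlapped. In the genes higher in Taurine the medians ran from 0.02 to 0.32 in Taurine animals and from -0.23 to 0.10 in Indicine animals.

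**Figure D5:**
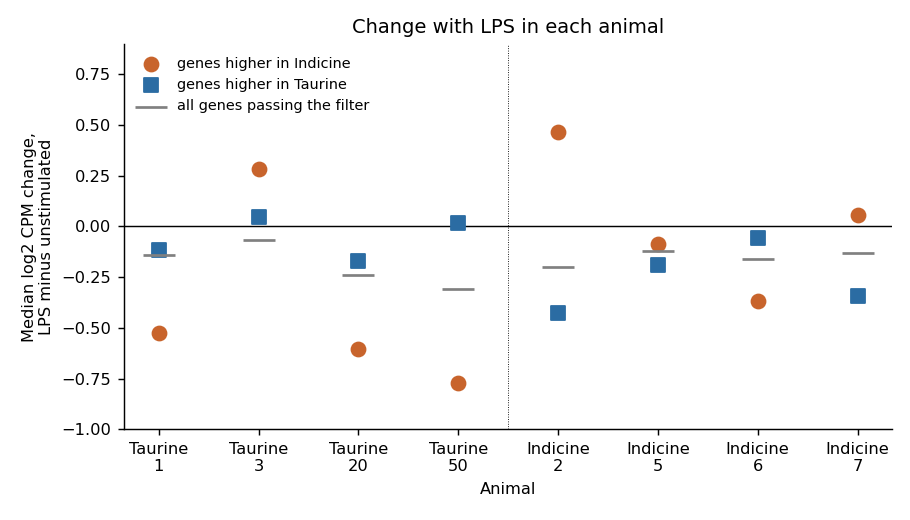
For each of the 8 animals, the median change of log2(CPM + 0.5) from the unstimulated to the LPS treated library is shown for the 250 genes higher in Indicine (circles), the 52 higher in Taurine (squares) and all 12968 genes (dashes). The circles of Taurine animals 1, 20 and 50 lie between -0.77 and -0.53, those of Taurine animal 3 and Indicine animal 2 at 0.28 and 0.46.

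Within the breeds, edgeR called no gene between LPS treated and unstimulated libraries, 0% of 12400 genes in Taurine and 0% of 11913 in Indicine. Of the 260 genes of the set tested in Taurine, 16 had an unadjusted p under 0.05, and of the 281 tested in Indicine 15 did, against 6.78% and 11.7% of all genes. The rule had limited the mean change with LPS over both breeds, so these counts describe the set and test nothing about it. The Wald test of DESeq2 called 2 genes of the set in Taurine, against 1.2% of all genes, and 1 in Indicine, against 2.54%. With the animal as a block, which pairs the libraries of each animal, 472 genes were called in Taurine, 3.81%, and 8 of these were among the 260 genes of the set that were tested. Of these 8, 4 were genes higher in Taurine that rose with LPS, 3 were genes higher in Indicine that fell and 1 was a gene higher in Indicine that rose, while 1.78% of all genes rose and 2.02% fell. An unadjusted p under 0.05 was found in 64 of the 260, or 24.6%, against 26.2% of all genes, and 48 of the 64 were negative. In Indicine, the block gave 26 calls, 0.218%, with 0 of the 281 tested genes of the set among them, of which 31 had an unadjusted p under 0.05 against 15.8% of all genes. The count of 8 changed when single animals were left out, as did the share over all genes. Without Taurine animal 3 the block called 54 genes of the set, against 9.87% of all genes. Of these 54, 48 were genes higher in Indicine that fell and 6 genes rose, against 7.41% and 2.45% of all genes. It called 0 without Taurine animal 1, 0 without animal 20 and 1 without animal 50, where 0.87%, 0.0644% and 1.32% of all genes were called.

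The difference between the breeds in the change with LPS was not itself part of the rule, but the libraries that chose the genes are those that measure it. It is the change in Taurine minus the change in Indicine, fitted with edgeR in 1 model over all 16 libraries. None of the 302 genes passed an adjusted p of 0.05 over all genes, and 0% of 12968 genes did. The lowest adjusted p among the 302 was 1.00 with edgeR's quasi-likelihood test. An unadjusted p under 0.05 was found in 19 of the 302, or 6.29%, against 1.92% of all genes, and 12 of these 19 were negative. Over all genes with such a p, 110 were negative and 139 positive. The set was chosen for complete separation of these same libraries, and 42 of its genes had no library of the lower breed at 1 CPM, so shares of the set beside those of all genes are a description and no evidence about the set. DESeq2 called 2 of 19985 genes, 0.01%, and 0 of the set, with 23 genes of the set at an unadjusted p under 0.05, against 1.9% of all genes. The fitted difference had a median of -0.58 in the genes higher in Indicine, where it was negative in 219 of 250, and 0.31 in those higher in Taurine, where it was positive in 36 of 52. Over all genes the median was -0.01. By its definition, the fitted difference is also the breed difference after LPS minus that in unstimulated libraries. The signs of both medians thus restate the larger breed difference after LPS and are no second observation of it.

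For the 4 genes with the largest breed differences, the edgeR fit without a block took the libraries of an animal as unpaired. In that fit the interaction lay within 1 standard error of 0 in all but ENSBTAG00000001801. It was 0.15 ± 1.30 (SE) for ENSBTAG00000009725 and -0.46 ± 0.55 (SE) for ENSBTAG00000038064. It was 0.92 ± 1.45 (SE) for ENSBTAG00000048470 and 1.27 ± 0.61 (SE) for ENSBTAG00000001801. None of these passed the adjusted threshold in edgeR, which does not show that the breed difference was equal under both stimuli. In the order given, the 8 libraries of the lower breed held 17, 14, 18 and 29 counts of these genes. The change with LPS in the lower breed thus rested on few counts.

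With the animal as a block, again none of the 302 genes passed, and the lowest adjusted p with edgeR was 0.178. An unadjusted p under 0.05 was then found in 63 of the 302, or 20.9%, against 8.28% of all genes, and 51 of the 63 were negative and belonged to the genes higher in Indicine. Over all genes with such a p, 522 were negative and 552 positive. Without Taurine animal 3, and with no block, 88 of 301 genes had an unadjusted p under 0.05, against 3.82% of all genes, and 84 of the 88 were negative. Those over all genes leaned the same way, with 317 negative and 176 positive. The count without a block was 7 without Indicine animal 2, 9 without Indicine animal 7 and 9 without Taurine animal 50, against 0.718%, 0.955% and 0.986% of all genes. Without Taurine animal 3 and with the block the count was 134, against 10.5% of all genes, and the lowest adjusted p of the set with edgeR was 0.125.

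The genes of the set took a small part of all counts. The 250 genes higher in Indicine together held 1.31% ± 0.186 (SD, n = 4) of gene counts in unstimulated and 1.36% ± 0.138 (SD, n = 4) in LPS treated Indicine MDMs. In Taurine MDMs they held 0.507% ± 0.169 (SD, n = 4) and 0.386% ± 0.0364 (SD, n = 4). The share ranged from 0.288% to 0.669% in unstimulated Taurine libraries and from 1.11% to 1.56% in unstimulated Indicine libraries. The 52 genes higher in Taurine held 0.301% ± 0.0816 (SD, n = 4) in unstimulated and 0.305% ± 0.0808 (SD, n = 4) in LPS treated Taurine MDMs. In Indicine MDMs they held 0.103% ± 0.0137 (SD, n = 4) and 0.0866% ± 0.0141 (SD, n = 4). The most abundant gene held 23.1% of the counts of the latter set and 10.3% of those of the former.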

How the data were processed

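Gene counts of 16 MDM libraries were analysed as deposited: the authors aligned 100 bp paired-end reads with STAR 2.6.0c, kept uniquely mapped reads and counted them with HTSeq 0.10.0, without normalization. The study names the genome ARS-UCD1.2 and the submitters' processing notes name UMD3.1, so no coordinates are given, and how HTSeq treated strand is not given in the sources used here. The counters of unassigned fragments were left out of the CPM, and they made up 18.4% to 23.2% of a library. The rule was applied in Python 3.11.15 with pandas 2.3.3, and figures were drawn with matplotlib 3.10.9. Contrasts were fitted in R 4.3.3 with edgeR 4.0.16 (glmQLFit and glmQLFTest, TMM), after the study's filter of 1 CPM in 4 libraries and its threshold of adjusted p under 0.05 with a log2 fold change of at least 1, and with DESeq2 1.42.0 as an alternative. The study's edgeR version was 3.8. Fits and rule were also run on simulated data, in which effects of single animals were added only for fits with a block. The LPS and interaction fits without a block were thus not tried on libraries that share an animal. Without symbols, the rule for naming genes took the 2 identifiers with the largest breed difference in each direction. The members and lists were chosen with earlier results of these data known. Libraries of the same number came from the same animal by their titles, and the deviations of an animal's libraries from their group means correlated between 0.65 and 0.84 across genes in Taurine and between 0.03 and 0.35 in Indicine. Where genes are near-identical copies or overlap, the counting could split or drop their reads, so single identifiers are uncertain in that respect.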

Additional observations from a re-analysis of the deposited data

How the results depend on the processing

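Of 302 genes, every alternative scaling, pseudocount, filter and limit on the change with LPS kept between 248 and 302, and their counts stayed within 1.5 times. Separating the means of the 8 animals in place of the libraries gave 638 genes, 183 higher in Taurine and 455 higher in Indicine. A difference of at least 2 gave 125, with 18 higher in Taurine and 107 in Indicine. With 1 animal left out the rule gave 310 to 416 genes, 51 to 110 higher in Taurine and 257 to 345 higher in Indicine. Of the genes of the set, 35 were called between the breeds in unstimulated libraries (0.318% of all genes) and 172 with DESeq2 (2.27%). With 1 animal left out the count was 12 to 34 (0.0938% to 0.381%). It was 12 without Indicine animal 7 (0.0938%), 17 without Taurine animal 1 (0.149%) and 17 without Indicine animal 6 (0.132%). It was 19 without Taurine animal 20 (0.212%), 20 without Taurine animal 50 (0.189%) and 20 without Indicine animal 5 (0.202%). For the change with LPS, 0 were called in Taurine and 0 in Indicine with edgeR, where 0% of all genes were. DESeq2 called 2 and 1, against 1.2% and 2.54% of all genes, and the replicate block 8 and 0, against 3.81% and 0.218%. With 1 animal left out and the block, which was added after the data had been seen, these counts ran from 0 to 54 and from 0 to 2. In Taurine the share over all genes then ran from 0.0644% to 9.87%. The 2 came without Indicine animal 6, with 1.59% of all genes called, and the 0 without Indicine animals 2, 5 and 7 with 0.48%, 0.0417% and 0%. For the difference between the breeds in that change, 0 genes of the set passed in any alternative, and over all genes DESeq2 called 2 and edgeR 0 with all animals. The 19 genes with an unadjusted p under 0.05 became 63 with the block, 7 to 88 with 1 animal left out and 31 to 134 with both. Over all genes the share was 1.92% in the main fit, 8.28% with the block and 0.718% to 3.82% with 1 animal left out. With both, the count was 48, 36, 134 and 31 without Taurine animals 1, 20, 3 and 50, against 7.81%, 5.29%, 10.5% and 5.22% of all genes. It was 40, 56, 85 and 35 without Indicine animals 2, 5, 6 and 7, against 6.3%, 7.91%, 15.4% and 6.15%. Counts of 7 without Indicine animal 2, 9 without Indicine animal 7, 9 without Taurine animal 50 and 88 without Taurine animal 3 differed by over 1.5 times. Breed differences of the 4 named identifiers kept their sign in all 72 alternatives and moved by more than 1 SD in 8, all with another pseudocount. The cause of these changes was not tested. Depth limits genes of low level, since 1 CPM stood for 7.36 to 10.3 counts.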
